A study of Mus musculus with 2 samples.

Results

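The amino acid and peptide transporters of mouse intestinal organoids (mIOs) were compared between a control and a dextran sulfate sodium (DSS)-treated culture. Members were the genes of the solute carrier families Slc1, Slc3, Slc6, Slc7, Slc15, Slc36, Slc38 and Slc43 with at least 10 counts in at least 1 library. The symbols of 48 of the 19294 listed genes matched these families, and 47 of the 48 passed the count minimum. The remaining match, Slc1a7, a glutamate transporter, held 2 counts in control and 4 in DSS. Of the 47 genes, Slc7a6os and Slc6a19os are opposite-strand genes and encode no carrier of these families, so 45 transporters were described. Beyond the count minimum the rule uses no measured value.

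Dietary protein reaches the small intestinal epithelium as peptides and free amino acids. Carriers of the apical brush border take these up from the lumen, mostly driven by the sodium gradient, by protons or by exchange. Carriers of the basolateral membrane pass amino acids to the blood and also feed the cell itself. Several carriers work only as a pair, in which a heavy chain (rBAT, encoded by Slc3a1, or 4F2hc, encoded by Slc3a2) brings a light chain of the Slc7 family to the membrane. Dividing cells depend on uptake of glutamine, leucine and other amino acids, and carriers such as LAT1 and ASCT2 are known for high levels in proliferating tissue.

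Crypts for the organoids came from mice of the genotype Lgr5-EGFP-IRES-creERT2, which express EGFP and creERT2 from the Lgr5 locus, the locus of a crypt base stem cell marker. Both cultures carried this genotype and were kept in Matrigel with EGF, Noggin and R-spondin. The control culture received no DSS and the other received DSS, a sulfated sugar polymer used to injure gut epithelium, over 4 days, and both are labelled Day 4. The DSS concentration of the sequenced culture is not given in the sources used here, and the organoids hold epithelium without the surrounding tissue. With 1 library per condition there is no replicate check, no test was made, and each ratio below compares these libraries.

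The libraries held 65493032 counts in control and 59746968 counts in DSS. Values are log2 ratios of scaled counts, DSS over control, so that a log2 ratio of 1 is a 2-fold and a log2 ratio of 2 a 4-fold difference. Square brackets hold an exact 95% interval, which covers counting error only. Levels are in CPM, that is relative to the scaled library total, and levels of different genes are set side by side only per kilobase (kb) of transcript. The samples are labelled as intestinal stem cells, and both libraries held markers of several epithelial cell types. The summed level of 12 enterocyte markers was 3530 CPM in control and 29400 CPM in DSS, and all 12 were above a log2 ratio of 1. That of 10 stem cell markers was 2050 CPM in control and 303 CPM in DSS, and all 10 were below -1. The 10 cycling cell markers summed to 1680 CPM in control and 276 CPM in DSS. These marker levels are given beside the transporter values below, and the part of cell composition in the transporter values was not tested. In such bulk RNA, fewer cells of a type and less RNA per cell cannot be told apart.

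Of the 45 transporters, 18 (40.0%) had a log2 ratio of 1 or more, against 19.3% of the 17235 genes with at least 10 counts in a library. At the other end, 8 (17.8%) had a log2 ratio of -1 or less, against 20.2% of all these genes. At the wider line, 13 transporters had a log2 ratio of 2 or more (7.87% of all genes) and 2 had a log2 ratio of -2 or less (6.54% of all genes). The median log2 ratio was 0.27 over the transporters and -0.06 over all genes. The other 209 Slc genes had 79 genes (37.8%) at 1 or more, 21 at -1 or less and a median of 0.44, so the share of higher genes among the transporters was close to that of other solute carriers. Among the 41 transporters with at least 100 counts in a library, 15 had a log2 ratio of at least 1 and 8 were at -1 or below.

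**Figure D1:**
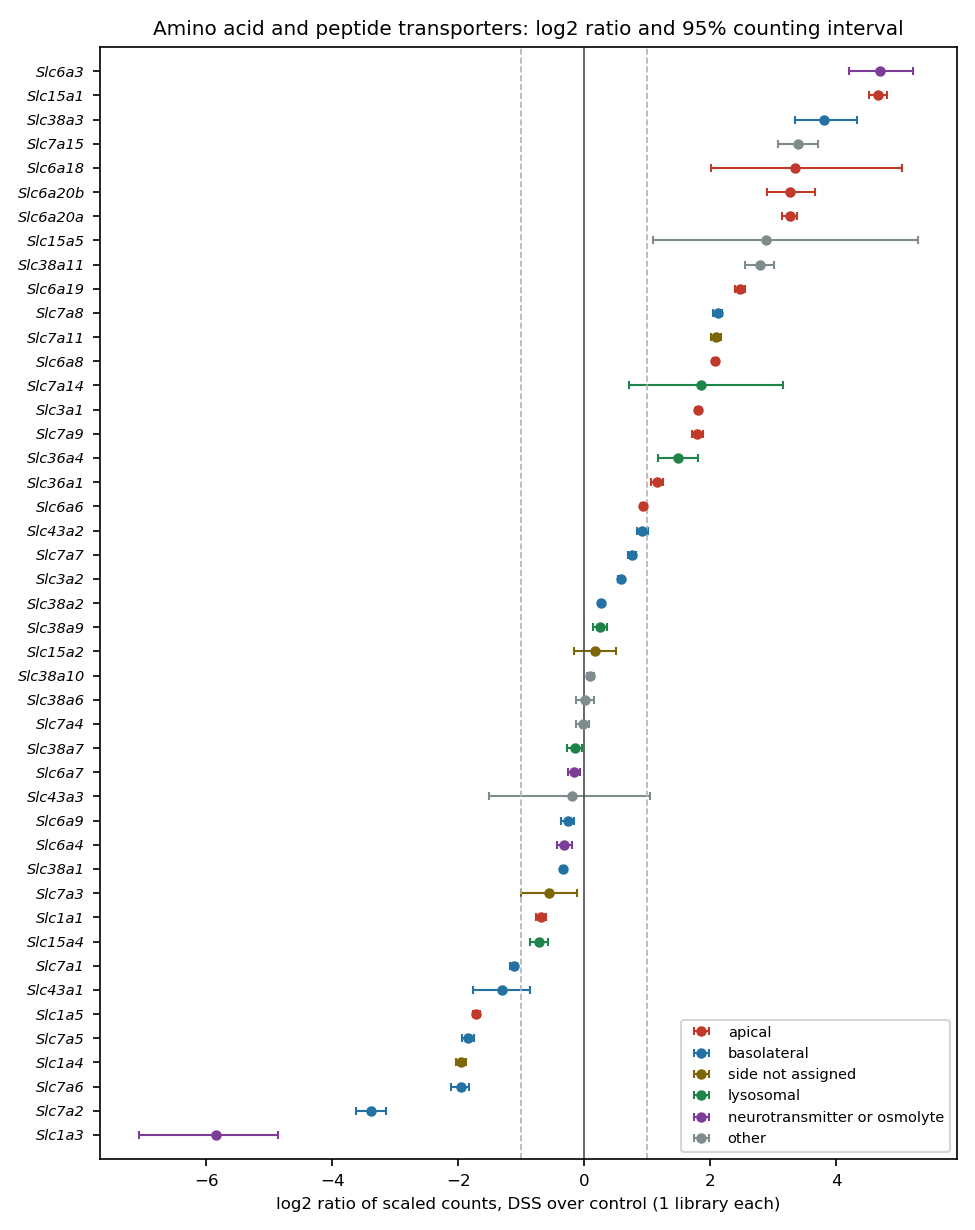
The plot of ratios shows each of the 45 transporters as a point on the x axis of log2 ratio of scaled counts (DSS over control, 1 library each), coloured by class, with bars for the exact 95% counting interval and dashed lines at -1 and 1. The points run from -5.85 for Slc1a3 to 4.70 for Slc6a3, and 9 of the 12 apical transporters lie at 1 or more.

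Apical carriers were mostly higher in DSS, and basolateral carriers gave values on both sides of 0. Of 12 apical carriers, 9 were higher in DSS by a log2 ratio of 1 or more and only Slc1a5 was at -1 or less, with a median of 1.95. Of 13 basolateral carriers, 2 had a log2 ratio of at least 1 and 5 of -1 or below, with a median of -0.26. Over all genes, 19.3% and 20.2% passed these lines. The summed counts of the apical carriers were 52524 in control and 90798 in DSS, a log2 ratio of 1.18 [1.16, 1.19]. Those of the basolateral carriers were 102590 and 76374, a log2 ratio of -0.04 [-0.05, -0.02], and this small difference changes sign with the scaling. Per kb, the summed apical level was 0.702 times the basolateral one in control and 1.47 times in DSS. These sums count the heavy chains beside their light chains. Slc3a1 made up 18.4% of the apical level per kb in control and 28.3% in DSS. Slc3a2 made up 19.5% and 26.7% of the basolateral one. The classes were assigned from the known location of each carrier, and several are found on more than 1 membrane.

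Among the apical carriers the largest ratio was that of Slc15a1, which encodes PepT1, the proton-coupled carrier of di- and tripeptides. It held 396 counts in control and 7660 in DSS, a log2 ratio of 4.66 [4.52, 4.81] or 25.3-fold. Its level per kb was 1.77 in control and 44.9 in DSS, which placed it 32nd of the 45 transporters in control and 7th in DSS. Slc6a19, which encodes B0AT1, the main sodium-coupled carrier of neutral amino acids, held 1358 and 5771 counts, a log2 ratio of 2.48 [2.39, 2.56]. Slc6a18, a related carrier best known in kidney, rested on 5 and 39 counts, a log2 ratio of 3.35 [2.01, 5.05]. The ratio of Slc15a1 thus stood above that of Slc6a19 by more than their counting intervals. The wide interval of Slc6a18 overlapped that of Slc15a1.

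The imino acid carriers Slc6a20a and Slc6a20b gave nearly the same ratio. Slc6a20a, which encodes the proline carrier SIT1, held 683 counts in control and 5000 in DSS, a log2 ratio of 3.26 [3.14, 3.38]. Its paralog Slc6a20b held 66 and 488 counts, a log2 ratio of 3.27 [2.90, 3.67]. The genes are neighbours in the annotation, and their longest transcripts were 92.8% identical over 1709 aligned bases. How reads shared between them were assigned is not given in the sources used here, so the values of the pair, above all those of the lower Slc6a20b, are uncertain.

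Slc3a1 and Slc7a9 encode rBAT and b0,+AT, the heavy and light chain of the apical exchanger of cystine and cationic amino acids. Slc3a1 held 6073 counts in control and 16288 in DSS, a log2 ratio of 1.81 [1.77, 1.85]. Slc7a9 held 1560 and 4123 counts, a log2 ratio of 1.79 [1.71, 1.88]. The chains therefore kept their proportion, with Slc3a1 at 3.33 times the level of Slc7a9 per kb in control and 3.37 times in DSS. Slc3a1 had the highest level per kb of all 45 transporters in DSS, at 131, and was 6th in control, at 37.4.

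Of the other apical carriers, 3 were higher and 2 lower in DSS. Slc6a8, the creatine carrier, held 5242 and 16972 counts, a log2 ratio of 2.08 [2.04, 2.13]. Slc6a6, the taurine carrier, held 18429 and 27017 counts, a log2 ratio of 0.94 [0.91, 0.97]. Slc36a1, the proton-coupled carrier PAT1 of small neutral amino acids, which is also found on lysosomes, held 1335 and 2272 counts, a log2 ratio of 1.16 [1.06, 1.25]. The other 2, Slc1a1 and Slc1a5, were on the opposite side. Slc1a1, the glutamate and aspartate carrier EAAT3, held 4557 and 2165 counts, a log2 ratio of -0.69 [-0.76, -0.61]. Slc1a5, the glutamine exchanger ASCT2, held 12820 and 3003 counts, a log2 ratio of -1.71 [-1.76, -1.65], and moved from 2nd to 13th in level per kb.

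**Figure D2:**
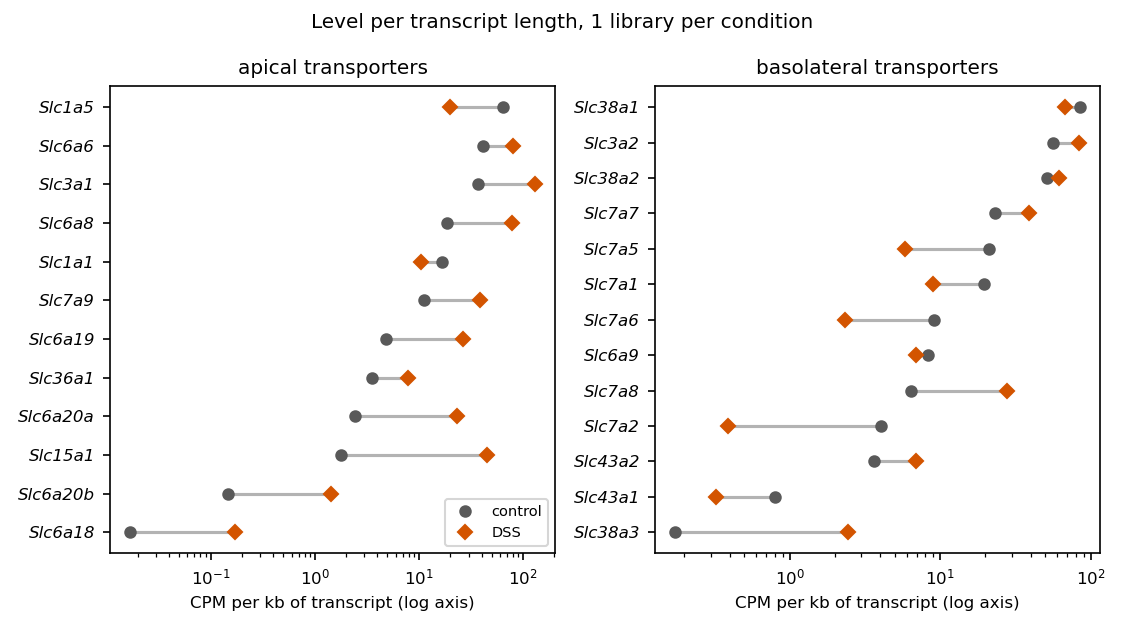
The plot of levels gives the level in CPM per kb of transcript on log axes for the 12 apical (left) and 13 basolateral carriers (right), with a grey circle for the control and an orange diamond for the DSS library and a line joining them. In the apical panel only Slc1a5 and Slc1a1 have the DSS mark to the left of the control mark, while the basolateral panel has marks shifted in either direction.

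The basolateral carriers split within their families. Slc7a8, which encodes LAT2, a light chain for neutral amino acids, held 1886 counts in control and 6262 in DSS, a log2 ratio of 2.12 [2.05, 2.19]. Slc7a5, which encodes the light chain LAT1, held 5300 and 1125 counts, a log2 ratio of -1.85 [-1.94, -1.75]. Per kb, Slc7a8 was at 0.306 times the level of Slc7a5 in control and at 4.79 times in DSS, so their order was reversed.

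The cationic amino acid exchangers of this family also differed from each other, without a change of order. Slc7a7, which encodes y+LAT1, the carrier of cationic amino acid efflux in absorptive epithelium, held 3786 and 4888 counts, a log2 ratio of 0.76 [0.70, 0.82]. Slc7a6, which encodes y+LAT2, held 2446 and 479 counts, a log2 ratio of -1.96 [-2.11, -1.82]. Slc7a7 was at 2.55 times the level of Slc7a6 per kb in control and at 16.8 times in DSS. Slc7a11, which encodes xCT, the light chain that imports cystine in exchange for glutamate and was not assigned to a side, held 1614 and 5281 counts, a log2 ratio of 2.10 [2.02, 2.18].

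All 5 of these light chains pair with 4F2hc, and their composition differed more than their sum. Slc3a2, which encodes 4F2hc, held 11347 counts in control and 12919 in DSS, a log2 ratio of 0.58 [0.54, 0.61]. The 5 light chains together held 15032 and 18035 counts, a log2 ratio of 0.65 [0.62, 0.68]. Of the summed level per kb, Slc7a5 made up 33.8% in control and 6.81% in DSS, and Slc7a6 made up 14.6% and 2.72%. Slc7a8 made up 10.4% and 32.6%, and Slc7a11 made up 3.93% and 12.2%. Per kb, Slc7a7 was the largest light chain in both libraries, with 37.3% in control and 45.7% in DSS. This order depends on the transcript lengths used. By counts alone, Slc7a5 was the largest in control, at 35.3%, and Slc7a8 in DSS, at 34.7%. Slc7a7 then made up 25.2% and 27.1%. Per kb, the level of Slc3a2 was 0.905 times the sum of its light chains in control and 0.977 times in DSS.

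**Figure D3:**
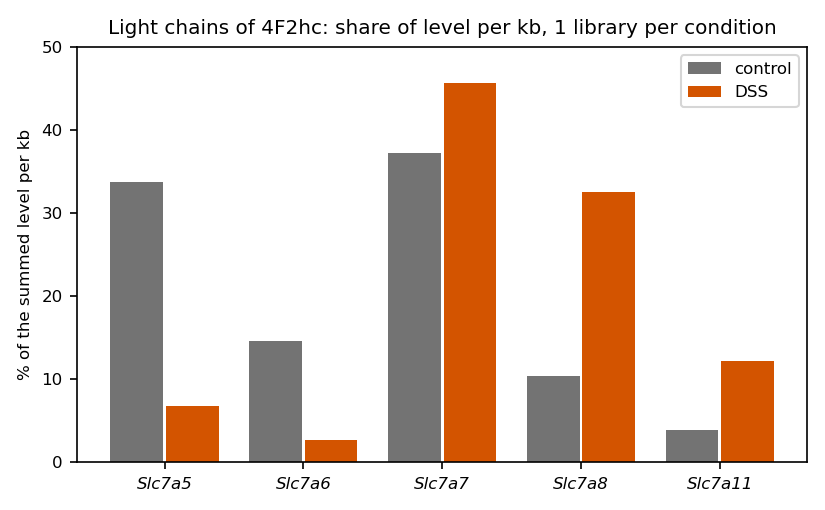
The plot of light chain shares gives, for each of the 5 light chains of 4F2hc, its percentage of their summed level per kb of transcript in the control (grey bar) and DSS (orange bar) library, with no error bar. Slc7a7 has the tallest bar in both, at 37.3% and 45.7%, while Slc7a5 is at 33.8% in control and 6.81% in DSS and Slc7a8 at 10.4% and 32.6%.

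A group of 5 carriers of glutamine and small neutral amino acids, chosen after the counts were seen, was mostly lower or little different. Other carriers of neutral amino acids are not in this group, among them Slc36a1 at 1.16, Slc6a19 at 2.48 and Slc38a7 at -0.15. Slc38a1, which encodes the sodium-coupled carrier SNAT1, had the highest level per kb of all transporters in control, at 85.1, and the 5th highest in DSS, at 67.4. It held 44263 and 26764 counts, a log2 ratio of -0.34 [-0.36, -0.32]. Slc38a2, which encodes SNAT2, held 17086 and 15722 counts, a log2 ratio of 0.27 [0.24, 0.30]. Slc1a4, the alanine, serine and cysteine carrier ASCT1, held 9803 and 1931 counts, a log2 ratio of -1.96 [-2.03, -1.88]. Slc38a3, which encodes the glutamine and histidine carrier SNAT3, stood apart with 39 and 419 counts and a log2 ratio of 3.81 [3.34, 4.33], though its level per kb of 2.43 in DSS was far under that of Slc38a1. Summed with Slc1a5, these 5 carriers held 84011 and 47839 counts, a log2 ratio of -0.42 [-0.44, -0.41].

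The cationic amino acid carriers CAT1, CAT2 and CAT3 were lower in DSS. Slc7a1 (CAT1) held 10013 and 3536 counts, a log2 ratio of -1.11 [-1.17, -1.06]. Slc7a2 (CAT2) held 2291 and 168 counts, a log2 ratio of -3.38 [-3.62, -3.15], or 10.4-fold lower. Slc7a3 (CAT3) held 131 and 68 counts, which gives -0.56 on the log2 scale, and the upper end of its interval was -0.12. The 3 genes together held 12435 counts in control and 3772 in DSS, a log2 ratio of -1.33 [-1.39, -1.28].

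The remaining basolateral carriers gave values on either side of 0. Slc43a2, which encodes LAT4, a facilitated carrier of large neutral amino acids, held 1874 and 2711 counts, a log2 ratio of 0.92 [0.84, 1.01]. Slc43a1, which encodes the related LAT3, held 178 and 55 counts, a log2 ratio of -1.31 [-1.77, -0.86]. Slc6a9, which encodes the glycine carrier GlyT1, held 2081 and 1326 counts, a log2 ratio of -0.26 [-0.36, -0.16].

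Carriers of neurotransmitters held both ends of the range. Slc6a3, which encodes the dopamine carrier DAT, had the highest ratio of all transporters, with 36 counts in control and 713 in DSS, a log2 ratio of 4.70 [4.21, 5.22]. Its interval overlapped that of Slc15a1. Its level per kb remained low, at 0.146 in control and 3.77 in DSS, 30th of 45. In the annotation Slc6a3 lies in a row with Clptm1l, Tert, Slc6a18 and Slc6a19, and the genes between the carriers gave other values, a log2 ratio of 0.06 [0.02, 0.11] for Clptm1l and -1.28 for Tert. Slc1a3, which encodes the glutamate carrier GLAST, had the lowest ratio, with 605 counts in control and 8 in DSS, a log2 ratio of -5.85 [-7.07, -4.86].

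Slc6a4, the serotonin carrier, held 1530 and 939 counts, a log2 ratio of -0.32 [-0.43, -0.20]. Slc6a7, a proline carrier best known in brain, held 2242 and 1528 counts, a log2 ratio of -0.16 [-0.26, -0.07]. Of 8 neuron and glia markers, 3 were not in the table, Sox10 and Gfap among them. The table lists only genes with at least 1 count in each library. The other 5 summed to 4.89 CPM in control and 17.5 CPM in DSS. Enteroendocrine cells also express genes of neurons, and 8 of 9 enteroendocrine markers were at 1 or more, against 19.3% of all genes. The other marker, Neurog3, was at -3.14. The summed level of the 9 markers was 851 CPM in control and 4250 CPM in DSS. The part of enteroendocrine cells in the values of Slc6a3 and Slc6a4 was not tested.

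Of the 5 lysosomal carriers, 2 were at 1 or more and none at -1 or less (19.3% and 20.2% of all genes), with a median of 0.25. Slc7a14, a relative of the cationic amino acid carriers, rested on 9 and 25 counts, a log2 ratio of 1.86 [0.72, 3.15]. Slc36a4, the proline and tryptophan carrier PAT4, held 119 and 255 counts, a log2 ratio of 1.49 [1.17, 1.81]. Slc38a9, the arginine-sensing carrier of the lysosome, held 1340 and 1217 counts, a log2 ratio of 0.25 [0.14, 0.36]. Slc38a7, a lysosomal glutamine carrier, held 1455 and 1001 counts, a log2 ratio of -0.15 [-0.27, -0.03]. Slc15a4, the histidine and peptide carrier PHT1, held 1243 and 579 counts, a log2 ratio of -0.71 [-0.86, -0.57]. Slc15a2, which encodes the high-affinity peptide carrier PepT2 of kidney and was not assigned to a side, held 162 and 140 counts, a log2 ratio of 0.18 [-0.16, 0.51], in contrast to the 4.66 of its relative Slc15a1.

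Among members with little known function, Slc7a15 held 94 and 752 counts, a log2 ratio of 3.39 [3.08, 3.71], and Slc38a11 held 182 and 959 counts, a log2 ratio of 2.79 [2.56, 3.02]. Others hardly differed. Slc38a10 held 4911 and 4021 counts, a log2 ratio of 0.10 [0.04, 0.16], Slc38a6 held 935 and 720 counts, a log2 ratio of 0.01 [-0.13, 0.15], and Slc7a4 held 1704 and 1280 counts, a log2 ratio of -0.02 [-0.13, 0.08]. The 4 members under 100 counts in both libraries were Slc6a18, Slc15a5, Slc7a14 and Slc43a3, a purine nucleobase carrier. Their log2 ratios ran from -0.20 to 3.35, and 3 of the 4 were at 1 or more. The opposite-strand gene Slc6a19os held 49 and 144 counts, a log2 ratio of 1.94 [1.47, 2.44], beside the 2.48 of Slc6a19, and whether the counting used strand is not given in the sources used here.

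The start regions of the members with the highest and lowest ratio, Slc6a3 and Slc1a3, and of the paralogs Slc6a20a and Slc6a20b are shown to set the sequence beside the values. Those of Slc15a1 and Slc3a1 were added after their values were seen, the first for its large ratio and the second because it holds the most motifs. RefSeq (GRCm38.p6) gave a promoter for 33 of the 45 transporters. Each line holds the 150 bases before the start, read 5′ to 3′ on the strand of the gene, and capitals mark motif matches on either strand. The windows are chr13:73536597-73536746 (plus strand) for Slc6a3, chr15:8710808-8710957 (minus) for Slc1a3, chr9:123678833-123678982 (minus) for Slc6a20a, chr9:123632539-123632688 (minus) for Slc6a20b, chr14:121505255-121505404 (minus) for Slc15a1 and chr17:85028197-85028346 (plus) for Slc3a1.
Slc6a3: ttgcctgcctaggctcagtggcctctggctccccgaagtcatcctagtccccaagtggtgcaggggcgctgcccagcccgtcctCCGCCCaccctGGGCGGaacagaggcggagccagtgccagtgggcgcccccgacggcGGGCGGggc
Slc1a3: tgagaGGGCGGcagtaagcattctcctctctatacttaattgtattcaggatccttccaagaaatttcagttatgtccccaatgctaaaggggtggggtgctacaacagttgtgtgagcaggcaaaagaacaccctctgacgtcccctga
Slc6a20a: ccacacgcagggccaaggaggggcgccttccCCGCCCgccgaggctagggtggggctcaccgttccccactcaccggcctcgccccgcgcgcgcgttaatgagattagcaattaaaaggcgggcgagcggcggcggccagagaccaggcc
Slc6a20b: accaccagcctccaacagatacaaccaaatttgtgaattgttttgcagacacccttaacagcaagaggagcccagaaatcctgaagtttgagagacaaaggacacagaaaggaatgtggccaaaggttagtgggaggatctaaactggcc
Slc15a1: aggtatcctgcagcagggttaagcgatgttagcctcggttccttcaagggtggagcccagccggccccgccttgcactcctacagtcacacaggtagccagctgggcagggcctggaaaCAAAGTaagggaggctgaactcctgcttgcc
Slc3a1: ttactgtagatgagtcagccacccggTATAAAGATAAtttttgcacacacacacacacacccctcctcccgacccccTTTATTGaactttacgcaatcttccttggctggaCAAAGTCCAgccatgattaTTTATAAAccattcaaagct
Slc6a20a and Slc6a20b, which differed by 0.01 in log2 ratio, had unlike windows, with 71.3% G or C in the first and 46.0% in the second.

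Motifs were searched on both strands of the 250 bases before the start, and a match is a description of letters, not a site. The Slc3a1 window held TTTATNG, a CDX motif, CAAAGTCCA, an HNF4 motif that contains the shorter motif CAAAGT, the GATA motif AGATAA, and 3 matches of the TATA box TATAAA, of which the farthest from the start overlaps the GATA match and the other two overlap each other. The CDX motif was found in 11.3% of 27025 genes and in 2 of the 33 transporters. The long HNF4 motif was found in 0.451% of genes and in Slc3a1 alone among the transporters, and an HNF1 motif in 0.44% of genes and in none of the 33. CAAAGT was found in 14.1% of genes and in 4 transporters, Slc15a1 among them, AGATAA in 11.4% and 4, and TATAAA in 14.3% and 5. TGATGNAAN, an ATF4-CEBP motif, was found in 3.89% of genes and in 2 transporters, Slc7a11 and Slc7a7, and CACGTG, an E-box, in 6.86% and 5. GGGCGG, a GC box, was found in 35.4% of genes and in 23 transporters, or 69.7%. By direction, the GC box was in 7 of 15 transporters at 1 or more and in 5 of 5 at -1 or less. The TATA box was in 2 of these 15 and 3 of these 5, and each other motif in at most 3 and 1. A promoter was given for only 15 of the 18 transporters at 1 or more and 5 of the 8 at -1 or less. The 27025 genes are all those with a promoter, whether or not they had counts here. No motif was tested for a link to direction.

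Genes that work with these carriers were described from lists. Of 13 brush border peptidases, which release the amino acids and peptides that the carriers take up, 12 had a log2 ratio of at least 1 and none was at -1 or below, with a median of 3.24. The highest were Tmprss15, enteropeptidase, with only 2 counts in control and 62 in DSS and a log2 ratio of 5.34, and Mme, neprilysin, at 4.14. The lowest were Anpep, aminopeptidase N, at 1.24 and Naaladl1 at 0.75. All 7 listed partners and drivers of the carriers were at 1 or more, with a median of 1.92. Pdzk1, a scaffold of apical carriers, was at 4.18. Atp1b1, a subunit of the sodium pump, which maintains the sodium gradient, was at 1.09.

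Of 4 amino acid carriers from other families, 2 were at 1 or more, against 19.3% of all genes. The lysosomal cystine carrier Ctns was at 1.20 and Pqlc2, a lysosomal carrier of cationic amino acids, at 1.01, while the basolateral aromatic amino acid carrier Slc16a10 was at 0.83 and Mfsd12 at 0.37. ATF4 is the factor that raises amino acid carriers and synthesis enzymes when amino acids are short. The list of its target genes held 30 genes, with Atf4 itself, at 0.54, counted among them. Of these 30, 3 had a log2 ratio of at least 1 and 9 of -1 or below, against 19.3% and 20.2% of all genes. The median of this list was -0.61. The lowest were the synthesis enzymes Cbs, with 425 and 9 counts and a log2 ratio of -5.17, and Phgdh, the entry step of serine synthesis, at -3.67. The highest were the stress response genes Atf3 at 2.68 and Ppp1r15a at 1.47. Of 30 genes of amino acid sensing by mTORC1 and GCN2, 28 were between -1 and 1, as were 10419 of the 17235 genes, and the median was 0.17. The exceptions were the arginine sensor subunit Castor2 at 1.71 and Eif2ak4, which encodes GCN2, at -1.04. Lamtor2 was at 0.66 and Wdr59 at -0.97.

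**Figure D4:**
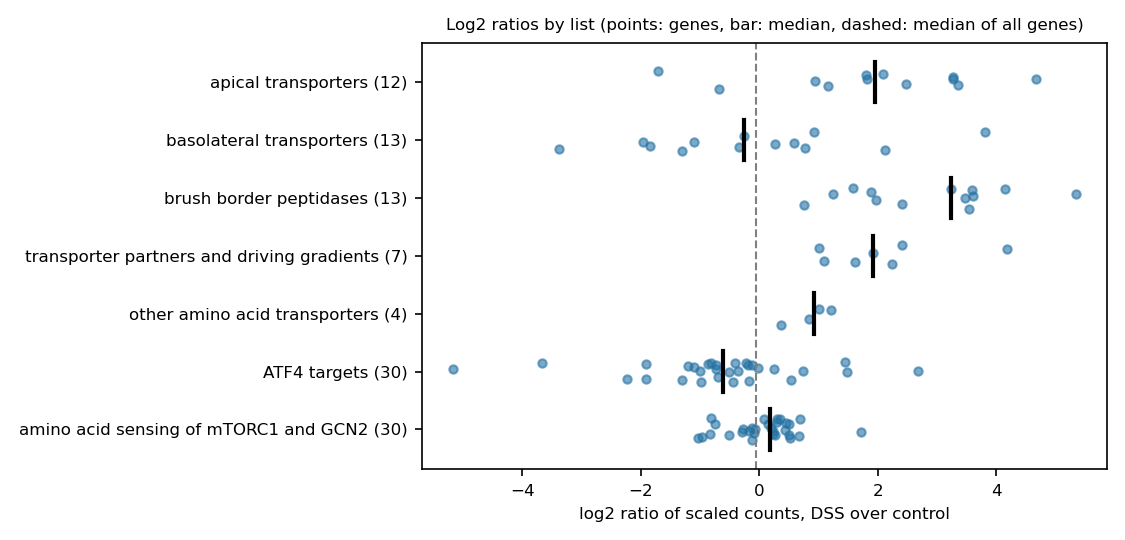
The plot of lists gives the log2 ratio (DSS over control) of each gene as a point on the x axis for the apical and basolateral transporters and 5 lists of related genes, with the number of genes in parentheses, a black bar at each median and a dashed line at the median of all genes. The medians run from 3.24 for the brush border peptidases to -0.61 for the ATF4 targets.

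The enterocyte markers had log2 ratios between 1.25 and 5.27, with a median of 2.92, and 8 of the 12 apical and 2 of the 13 basolateral carriers fell within that range. The stem cell markers had a median of -3.68, with Lgr5 at 263 CPM in control and 19.2 CPM in DSS. Paneth cell markers summed to 1070 CPM in control and 335 CPM in DSS, and goblet cell markers to 866 CPM and 11700 CPM. By RT-PCR of DSS-treated organoids, the paper reports lower Lgr5 and Lyz and little difference in Vil1, Muc2 and Chga. In these libraries Lgr5 was at -3.78 and Lyz1 at -1.06, but Vil1 was at 1.25, Muc2 at 4.98 and Chga at 2.60. The reason for this difference was not tested. Tuft cell markers summed to 9.04 CPM and 4.46 CPM. Mesenchymal markers summed to 1.44 CPM in control and 2.10 CPM in DSS and immune markers to 14.3 CPM and 24.9 CPM, and the defining markers Col1a2, Col3a1, Dcn, Lum, Ptprc and Cd3e were not in the table. Of 68 carriers listed by role, 22 were not in the table, among them Slc6a14, an apical carrier of neutral and cationic amino acids, and Slc38a5, and no value is given for them.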

How the data were processed

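mRNA-seq was done on total RNA of 1 control and 1 DSS-treated culture (TruSeq Stranded mRNA). The authors deposited raw counts per gene with NCBI gene identifiers, and the single-sample files, although named for FPKM, hold the same counts. The labels name HISAT2 and StringTie. Versions, genome build, annotation and counting settings are not given in the sources used here. No gene in the table is at 0 in either library.

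Counts were scaled with TMM factors (1.09 for control, 0.915 for DSS) in edgeR 4.0.16 under R 4.3.3. Log2 ratios carry exact Clopper-Pearson 95% intervals, computed with scipy 1.17.1. The calculation was run on simulated counts that held counting noise only. That run checks the code and cannot show variation between cultures or libraries. Without replicates, no test was run. Transporters with at least 100 counts in a library are named with both values, and from other lists the 2 highest and 2 lowest genes with at least 50 counts, of which some are not reported here.

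Members, roles and lists were chosen with earlier results of these data known. Substrate groups, chain ratios, gene neighbours, motifs and the exclusion of 2 opposite-strand genes were chosen after the counts were seen. Per-kb levels were planned on the median protein-coding transcript (GENCODE vM21). Because 6 members then had implausibly short lengths, the longest transcript was used instead, a choice made after the values were seen. Protein sequences were not used here.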

Additional observations from a re-analysis of the deposited data

How the results depend on the processing

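With DESeq2 size factors (DESeq2 1.42.0), a prior count of 2 or the deeper library thinned, 18 transporters stayed at 1 or more and 8 at -1 or less, and no transporter changed sign. Total counts moved the median of all genes by -0.26, with 15.4% of genes then at 1 or more and 26.2% at -1 or less. The median log2 ratio became 0.01 for all transporters, 1.69 for the apical and -0.52 for the basolateral ones, and the summed apical and basolateral counts gave 0.92 and -0.29. Slc15a2 (-0.08), Slc38a10 (-0.16), Slc38a9 (-0.01) and Slc38a6 (-0.24) changed sign, while 17 transporters stayed at 1 or more and the same 8 at -1 or less. Upper quartile factors gave 2.04 for the apical and -0.17 for the basolateral median, 1.27 for the summed apical and 0.05 for the summed basolateral counts, which changed sign, as did Slc7a4 (0.07). The sign of the summed basolateral counts therefore depends on the scaling.

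Without a count minimum the median of the transporters was 0.42. The apical median was 1.81 with 10 counts in both libraries or 50 in either, and 2.28 without Slc1a5 and Slc36a1. With the median transcript, planned first, the apical over basolateral level per kb was 0.824 in control and 1.59 in DSS. The DSS value of Slc1a3 rests on 8 counts. No paired analysis was possible because each condition has 1 library.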
